A study of Rhizophagus irregularis DAOM 181602=DAOM 197198 with 30 samples.

Results

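The carrot root set of this series compares germinating spores of Rhizophagus irregularis DAOM197198, an arbuscular mycorrhizal fungus, kept above carrot roots with spores kept without roots. It holds 5 of the 25 libraries with a column of counts, namely the 3 libraries titled as taken with root exudates and 2 of those titled as their controls, and all 30282 gene models of the tables were examined in them. For the root-exudate group, 60000 spores lay for 14 d on a cellophane sheet above Daucus carota DC1, a carrot hairy root culture, in the dark and at 2% CO2. The roots had been grown for about 1 week beforehand in 14.5 cm dishes of M medium with 1% sucrose and 0.3% Phytagel. The no-root group had the same spores, sheet, medium and time, but no carrot roots. Another no-root sample, labelled replicate 3, has no column and was not analysed here. Per the labels the roots themselves stayed below the sheet, so what passed through it was not defined or dosed. The tables list fungal models only, so no carrot transcript could be used to check which dishes held roots.

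The sample titles and the column headings of the root table name the groups in opposite ways for the same library numbers. The titles and treatment fields were followed here. If the headings are right, every direction given below reverses. Nothing in the gene counts was used to choose between them.

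Arbuscular mycorrhizal fungi depend on a living plant for their carbon. Before they meet a root, their spores germinate on stored lipid and glycogen, and lipid is turned into sugar through beta-oxidation in peroxisomes and the glyoxylate cycle. Roots release strigolactones and other compounds that raise respiration and hyphal branching in these fungi, and the fungus later passes phosphate and nitrogen to the plant. These points are background and not results of these data.

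Values from the rest of the series serve as a reference in a few places. They come from spores germinated for 2 d in 40 ml of liquid M medium (80000 spores) and then treated with acetone alone (1 in 1000) or with 1e-06 M of GR24, a strigolactone made by synthesis. GR24 libraries at 14 d (3) and acetone libraries at 14 d (3) and 1 h (2) are used most. Dish and liquid culture differ between the sets, which cannot be told apart from what roots or GR24 did when the sets are compared.

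Depth was 7319911, 6308737 and 8173445 gene reads in the root-exudate libraries, against 7804635 and 7449987 in the no-root libraries, within the range of 5786080 to 11812317 over all 25. Reads were found for 18251, 18138 and 18462 models with root exudates, and for 18914 and 18914 without roots. The first principal component of the 5 libraries (54.18% of the variance) separated the groups, and the second (19.36%) separated root-exudate replicate 1 from replicates 2 and 3. The share of reads that matched several models was higher with root exudates, at 0.493%, 0.222% and 0.381%, against 0.133% and 0.177% without roots. Nothing in the labels states that replicates were grown separately. The p-values therefore cover no more than the spread among these 5 libraries. In bulk RNA of a whole culture, fewer cells of a kind and less RNA per cell cannot be told apart.

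Models that were higher with root exudates included an ABC transporter, 4 aldo/keto reductases, a P-type cation ATPase and some glutathione S-transferases and respiratory chain subunits. Models that were lower included a chitin synthase and some nitrogen transporters, HMG box models, HSP70-like chaperones, histones and RNA silencing proteins. In all, 14752 models had enough reads to be tested, and 2245 of them (15.2%) passed an adjusted p of 0.05 in the quasi-likelihood test of edgeR. Of these, 1101 (7.46%) were higher and 1144 (7.75%) lower with root exudates. Large changes were more often falls: 148 models (1.0%) were at least 2-fold higher and 563 (3.82%) at least 2-fold lower. Scaling by library totals alone gave 762 higher and 1369 lower of 2131. The call count depends strongly on the no-root libraries, at 795 without no-root replicate 1 and 1106 without no-root replicate 2, and it was 1352 without root-exudate replicate 2.

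**Figure D1:**
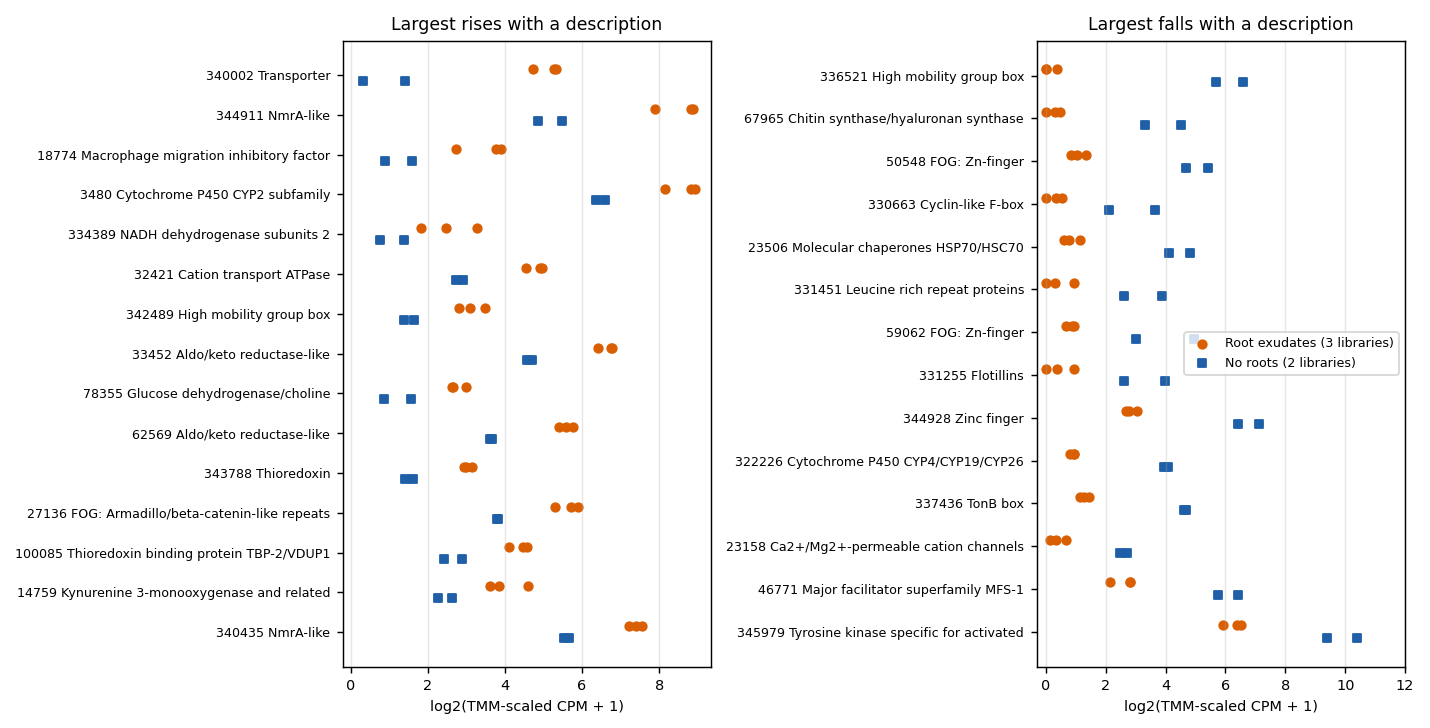
TMM-scaled read counts (CPM) on a log2(CPM + 1) scale, per library, for 15 described models with the largest rises (left) and 14 with the largest falls (right) by log2 fold change. Circles are the 3 root-exudate libraries and squares the 2 no-root libraries; in each of these models the groups do not overlap, as in 24.0% of all tested models with root exudates above and 23.9% with root exudates below.

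The largest rise among described models was in 340002, an ABC transporter of the breast cancer resistance protein group, pumps that move small molecules across membranes. It had 25.3, 39.0 and 37.9 CPM (counts per 1e+06 gene reads after TMM scaling) in root-exudate libraries, against 1.64 and 0.247 CPM in no-root libraries. All 3 root-exudate libraries lay far above both others, and the log2 fold change was 5.12 (SE 0.47, adjusted p = 0.000581). In liquid culture it averaged 0.054 CPM after 1 h of acetone and 11.0 CPM after 14 d of acetone. The P-type cation ATPase 32421, an ion pump, had 22.6, 29.3 and 30.4 CPM with root exudates, against 5.63 and 6.54 CPM without roots (log2 2.17, SE 0.20, adjusted p = 6.44e-05).

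A group of 4 models annotated as potassium channel beta subunits, a family with the fold of aldo/keto reductases, rose together. These enzymes reduce aldehydes and ketones with NADPH. Model 204628 had 470.1, 453 and 449 CPM with root exudates, against 150.4 and 164 CPM without roots. Model 137896, whose best hit is an aryl alcohol dehydrogenase, had 469, 475 and 450 CPM, against 156 and 171 CPM. The values of this pair nearly coincide, and as the tables give no coordinates, whether they are pieces of 1 gene was not tested. Models 33452 and 62569 were higher by log2 2.05 (SE 0.13) and 2.03 (SE 0.16), and their groups did not overlap either. All 4 also rose between 1 h and 14 d in acetone, by log2 2.50 to 4.12.

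NmrA-like proteins share the fold of a nitrogen regulator of Aspergillus, and 2 of them were among the largest rises. Model 340435 had 187, 147 and 168 CPM with root exudates, against 45.6 and 49.3 CPM without roots (log2 1.81, SE 0.11, adjusted p = 3.62e-06). Model 344911 had 236, 450 and 468 CPM, against 43.8 and 28.1 CPM (log2 3.41, SE 0.51, adjusted p = 0.0371), and its call was lost without any 1 of root-exudate replicates 2 and 3 and no-root replicates 1 and 2, with adjusted p of up to 0.284. The other large rises were a P450 of the CYP2 group (3480, log2 2.20), a macrophage migration inhibitory factor-like model (18774, 2.88), a thioredoxin (343788, 1.94), an arrestin-related model (100085, 1.90), a flavoprotein monooxygenase (14759, 1.82), an HMG box model (342489, 2.06), a glucose or choline dehydrogenase-like oxidoreductase (78355, 2.04) and an armadillo repeat model (27136, 1.90). The P450 3480 lost its call without root-exudate replicate 3 or either no-root library (adjusted p up to 0.138), 14759 without no-root replicate 2 (0.0725) and 78355 without no-root replicate 1 (0.0703).

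The largest falls reached levels near the limit of detection. The HMG box model 336521, whose best hit is a mating-type HMG protein, had 0, 0.302 and 0 CPM with root exudates, against 94.9 and 50.2 CPM without roots. These are 2 reads over the root-exudate libraries and 1217 over the no-root libraries, a ratio of 869.7-fold lower with a 95% exact interval of 240.2 to 7189 that covers counting error only. No read of it was found in the acetone libraries at 1 h or 14 d. The chitin synthase-like model 67965, of the enzymes that build wall chitin, had 0.396, 0 and 0.234 CPM with root exudates, against 21.7 and 8.88 CPM without roots (log2 -6.03, SE 0.65, adjusted p = 0.000895). A kinase-like (25221), a zinc finger (85395), a coiled-coil (94842) and 2 undescribed models (22659, 99524) had no read in any root-exudate library and 51 to 77 reads over the no-root libraries. Against a floor of 3 reads over the group, they were at least 24.3-fold to at least 36.7-fold lower.

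Zinc fingers and a transporter fell from higher levels. The C2H2 zinc finger 344928 had 5.93, 5.44 and 7.26 CPM with root exudates, against 84.6 and 139 CPM without roots (log2 -4.16, SE 0.24, adjusted p = 4.6e-05). The zinc finger model 50548 had 0.791, 1.06 and 1.52 CPM, against 24.8 and 41.6 CPM. The major facilitator transporter 46771 had 3.43, 6.04 and 5.97 CPM, against 53.3 and 85.5 CPM. In these 3 both no-root libraries lay far above every root-exudate library. The kinase-like model 345979 had 60.1, 83.1 and 91.8 CPM, against 1348 and 674 CPM (log2 -3.70, SE 0.43, adjusted p = 0.0228); its no-root libraries differed from each other by about 2-fold, and the call was lost without any 1 of the root-exudate libraries (adjusted p up to 0.238).

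Other falls of described models included F-box models (330663, 331451), another zinc finger (59062), a flotillin-like model (331255), a cation channel-like model (23158) and a model with a TonB box (337436), at log2 -3.96 to -4.76. Without root-exudate replicate 1 the call of 330663 was lost, without replicate 2 that of 331255, without replicate 3 that of 331451, and without any 1 of them that of 59062 (adjusted p up to 0.196). The HSP70-like 23506 belongs here too, with 0.527, 1.21 and 0.702 CPM with root exudates, against 16.5 and 27.3 CPM without roots. Of the 30 largest rises and falls together, 20 kept their call in every alternative. Models with no description or best hit spanned a like range. Model 34998 had 1 read over the root-exudate libraries and 364 over the no-root libraries, 520.2-fold lower (95% exact interval 92.8 to 20600). Model 34882 had 1.71, 1.81 and 1.29 CPM, against 71.4 and 32.3 CPM, and was not called without root-exudate replicate 1 (adjusted p = 0.0565). Among undescribed models of at least 5 CPM in the higher group, the largest rise was in 30625, with 6.20, 9.06 and 8.66 CPM, against 2.11 and 1.11 CPM.

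**Figure D2:**
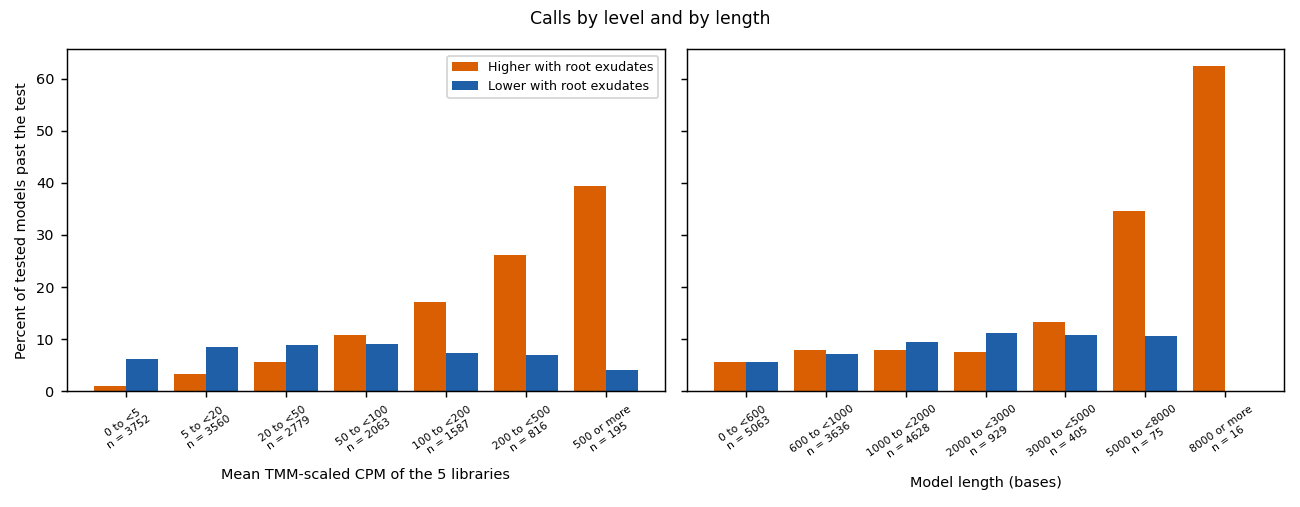
Percent of tested models past an adjusted p of 0.05, higher (orange) or lower (blue) with root exudates, by mean TMM-scaled CPM of the 5 libraries (left) and by model length in bases (right), with the number tested under each bar. The share of rises goes up with level, from 1.07% below 5 CPM to 39.5% at 500 CPM or more.

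Rises and falls were spread unevenly over expression levels. Of 3752 models under 5 CPM, 1.07% rose and 6.16% fell, while of 195 models at 500 CPM or more, 39.5% rose and 4.10% fell. At 50 CPM or more, a line drawn after the values were seen, 786 of 4661 models rose (16.9%) and 366 fell (7.85%). Below it 315 of 10091 rose (3.12%) and 778 fell (7.71%). Where the counts of a gene list at 50 CPM or more are given below, they are read against the first pair of shares. Long models also rose often: of 16 tested models of at least 8000 bases, 10 rose and 0 fell. Among models at 50 CPM or more, rises were 20.2% under 1000 bases, 14.9% from 1000 to under 2000 and 10.9% from 2000 to under 4000. At 4000 bases or more they were 37.1%. Whether length or level goes with these rises was not tested.

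The 10 long models that rose had various annotations. The cytosolic dynein heavy chain 64146, the motor that carries cargo along microtubules, had 3270, 3764 and 3716 CPM with root exudates, against 2289 and 2305 CPM without roots (log2 0.64, SE 0.07, adjusted p = 0.000212). The vacuolar protein sorting model 345157 had 4074, 3937 and 3851 CPM, against 2725 and 2811 CPM. The E3 ubiquitin ligase 340801 had 3429, 3598 and 3415 CPM, against 2276 and 2473 CPM. In these 3 the groups were well apart and the change was modest, with log2 between 0.51 and 0.64. The TRA1 subunit of the SAGA acetyltransferase (335098), the SMG1-like kinase (331373), a DNA-dependent protein kinase-like model (334732) and 2 AAA ATPase or nucleolar models (769, 337027) also rose, by log2 0.47 to 0.83, as did a nuclear localization sequence binding protein (13961, 0.65) and a C-type lectin (339013, 0.34).

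**Figure D3:**
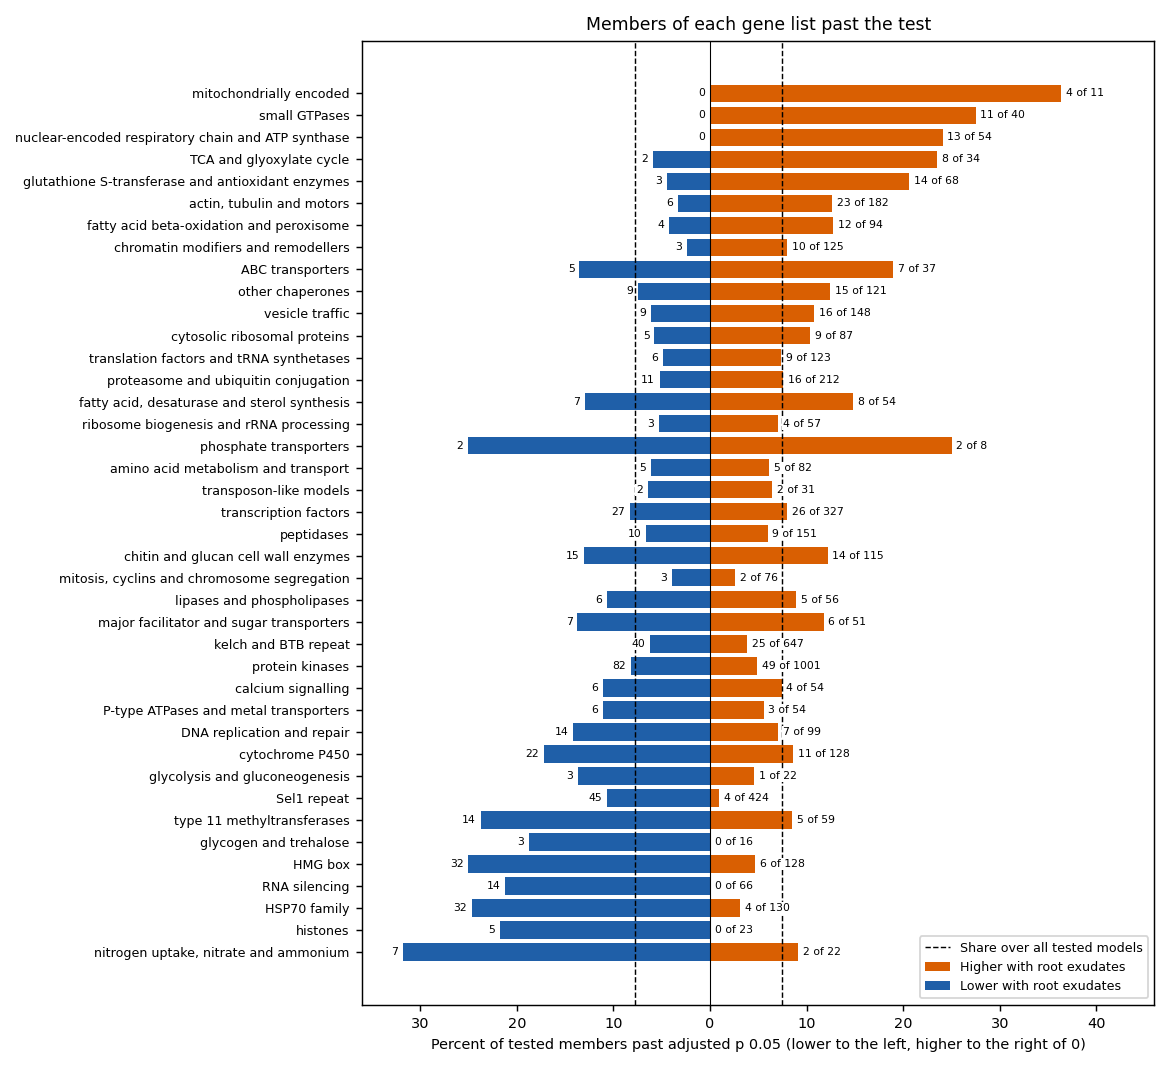
Percent of the tested members of 40 gene lists that passed an adjusted p of 0.05, higher with root exudates to the right of 0 and lower to the left, with the counts. Dashed lines are the shares over all tested models, 7.46% and 7.75%; lists of the respiratory chain and of small GTPases have rises and no falls, histones and RNA silencing falls and no rises.

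The 40 lists were made by keywords in the deposited descriptions, and each is given by its counts and the median log2 fold change of its tested members, beside a median of -0.01 over all models. Giving models with no read in 1 group their bound could not move a list's median, as they stay on the same side of it. Members named beyond the 4 of smallest adjusted p in a list were chosen after their values were seen. Counts in most lists shrink when a no-root library is left out, and for most lists such counts are given beside those of the full fit.

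Nuclear-encoded models annotated to the respiratory chain and ATP synthase, which make ATP in mitochondria, were higher with root exudates in 13 of 54 tested members. They were lower in 0, with a median of 0.22. Not all are subunits: the member of smallest adjusted p, 67591, is annotated as nuclear control of ATP synthase 2 (log2 0.58, adjusted p = 0.000329). Among members at 50 CPM or more 12 of 40 rose and 0 fell. ATP synthase subunit d (144661) had 359, 320.3 and 349 CPM with root exudates, against 235 and 238 CPM without roots (log2 0.53, SE 0.08, adjusted p = 0.000949). The ATP synthase subunits alpha (345985), beta (337722), gamma (175375), OSCP (26983), epsilon (337924), delta (131619) and b (337396) did not pass. They stood at log2 -0.02 to 0.14. Cytochrome c oxidase subunit VIIa (347985) had 103, 77.2 and 93.8 CPM, against 62.2 and 54.8 CPM. Complex I (278401, 337262), complex III (52069, 345945) and the succinate dehydrogenase flavoprotein (346824) had members that rose by log2 0.33 to 0.56. Rises numbered 4 without either no-root library, and 8 with a replicate block.

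Models encoded in mitochondrial DNA were near the limit of detection in these poly-A libraries, and their summed share of reads was highest in root-exudate replicate 1. ATP synthase subunit 6 (1087) had 6.86, 1.96 and 2.93 CPM with root exudates, against 0.703 and 0.247 CPM without roots. The NADH dehydrogenase model 334389, among the 15 largest rises, had 8.70, 2.57 and 4.57 CPM, against 0.703 and 1.603 CPM, and its call was lost without root-exudate replicate 3 or either no-root library (adjusted p up to 0.248). Of 11 tested members 4 rose and 0 fell, and 0 were called without no-root replicate 1. Their share of all reads was 0.00731%, 0.00227% and 0.00469% with root exudates, against 0.00094% and 0.00164% without roots. That share moved with the share of reads matching several models, and the part of library make-up in this result was not tested.

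The list of the tricarboxylic acid and glyoxylate cycles, which burn acetyl-CoA or turn it into sugar precursors, had 8 rises and 2 falls of 34. Among members at 50 CPM or more these were 8 and 2 of 30. Its keywords also took in other enzymes, so the counts are not of these cycles alone. Such rises were 3-isopropylmalate dehydrogenase (11473, log2 0.66) and 214699 (0.67), whose best hit is homoisocitrate dehydrogenase. Pyruvate dehydrogenase E1 subunits (336775 and 340439, both 0.31) and an alpha-keto acid dehydrogenase E2 subunit (22968, 0.36) also rose. A dihydrolipoamide acetyltransferase (306924, -0.35) fell. Isocitrate lyase (344052), the entry step of the glyoxylate cycle, had 392, 368 and 369 CPM with root exudates, against 228 and 253 CPM without roots (log2 0.64, SE 0.08, adjusted p = 0.000327). Malate synthase (340547), the step after it, had 368, 379 and 389.7 CPM, against 295 and 320 CPM, and the mitochondrial aconitase 343887 had 1012, 908 and 888 CPM, against 671 and 710 CPM. Both glyoxylate enzymes were thus higher in every root-exudate library. Another aconitase model, 336714, went the other way, with 48.7, 55.0 and 49.5 CPM, against 94.2 and 86.1 CPM. Rises numbered 3 without no-root replicate 1, and the list's median of 0.05 became -0.01 with scaling by library totals.

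Beta-oxidation and peroxisome models, which break down stored fatty acids, had 12 rises and 4 falls of 94, and 11 and 2 of the 52 at 50 CPM or more. The peroxin 343464, a docking factor for import into peroxisomes, had 321, 244 and 273 CPM with root exudates, against 175 and 173 CPM without roots (log2 0.68, SE 0.11, adjusted p = 0.00307). A long-chain acyl-CoA synthetase (341789), an acyl-CoA dehydrogenase (337897), the multifunctional beta-oxidation enzyme (226818) and 2 carnitine acyltransferases (64524, 99639) rose by log2 0.40 to 0.54. An acyl-CoA oxidase (347500, -0.38) and a peroxisomal acyl-CoA transporter (341277, -0.43) fell. Rises numbered 2 and falls 0 without no-root replicate 1.

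Glycogen and trehalose enzymes had 0 rises and 3 falls of 16. Both glycogen phosphorylases, which release glucose from stored glycogen, fell: 78197 had 421, 366 and 394 CPM with root exudates, against 537 and 575 CPM without roots, and 292188 had 377, 333 and 335 CPM, against 468 and 462 CPM. Trehalose-6-phosphate synthase (78378) fell by 0.42 on the log2 scale. Falls numbered 2 to 6 over the fits that left out 1 library. In glycolysis, with 1 rise and 3 falls of 22 (0 and 2 without no-root replicate 1), pyruvate kinase (341307) fell by 0.40, and a phosphoglycerate mutase-like model (337222) had 74.2, 91.4 and 93.2 CPM, against 1210 and 674 CPM (log2 -3.46, SE 0.33, adjusted p = 0.0112). Its call was lost without root-exudate replicate 1 or 3 (adjusted p up to 0.131). The 1 rise was in glucose-6-phosphate isomerase (193233), with 765, 971 and 907 CPM, against 621 and 707 CPM. Models of aldolase (342510), glyceraldehyde-3-phosphate dehydrogenase (334165), phosphoglycerate kinase (72612) and enolase (337163) did not pass. The median of the glycolysis list was 0.055.

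Sterol and fatty acid enzymes moved both ways, with 8 rises and 7 falls of 54. HMG-CoA reductase (12986), the regulated step of sterol synthesis in other eukaryotes, had 363, 427 and 441 CPM with root exudates, against 241 and 249 CPM without roots (log2 0.74, SE 0.09, adjusted p = 0.000307). A sterol C5 desaturase (71707, log2 0.65), a sterol reductase (341743, 0.32) and a sterol or diacylglycerol acyltransferase (151953, 0.33) rose as well. The delta-9 acyl-CoA desaturase 340272, which puts the first double bond into fatty acids, had 4100, 3172 and 3344 CPM, against 4975 and 5309 CPM (log2 -0.54, SE 0.11, adjusted p = 0.015). Other desaturase models (344273 and 347522) and an elongase (2587) fell as well, at log2 -0.33 to -0.92. Rises numbered 3 and falls 1 without no-root replicate 1.

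Glutathione S-transferases, thioredoxins and related antioxidant enzymes, which couple toxic compounds to glutathione or reduce peroxides and disulfides, had 14 rises and 3 falls of 68. At 50 CPM or more 9 of 33 rose and 0 fell. The transferase 343163 had 1389, 1623 and 1681 CPM with root exudates, against 774 and 866 CPM without roots (log2 0.93, SE 0.09, adjusted p = 7.49e-05). Thioredoxin 209220 had 1472, 1804 and 1786 CPM, against 910.3 and 962 CPM. Glutathione peroxidase 339767 had 544, 349 and 373 CPM, against 144 and 142 CPM, where root-exudate replicate 1 stood above the others. The transferases 40703, 82879, 52235, 338978, 334239 and 348567 rose by log2 0.37 to 1.11. A thioredoxin-binding arrestin-like model (335751, log2 -1.72) and the manganese superoxide dismutase 21417 (-0.55), an enzyme that removes superoxide, fell. Rises numbered 8 without no-root replicate 1.

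Cytochrome P450 models, monooxygenases that oxidise lipids and foreign compounds, had 11 rises and 22 falls of 128. Model 331278 of the CYP4 group had 12.4, 9.67 and 12.4 CPM with root exudates, against 62.0 and 49.5 CPM without roots (log2 -2.28, SE 0.16, adjusted p = 1.01e-05). Model 319361 of the same group had 12.5, 14.4 and 11.0 CPM, against 60.9 and 48.0 CPM, and 322226 had 0.923, 0.755 and 0.936 CPM, against 16.1 and 14.4 CPM. In these 3 the acetone libraries at 14 d averaged 3.38, 2.83 and 0.0731 CPM, all nearer to the root-exudate than to the no-root level. Below 50 CPM 8 of 100 rose and 18 fell, and above it 3 of 28 rose and 4 fell. Falls numbered 18 to 22 over the fits that left out 1 library, and rises 3 to 24.

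ABC transporters, 340002 included, had 7 rises and 5 falls of 37. The multidrug exporter 67340 fell, with 148, 157 and 164 CPM with root exudates, against 218 and 222 CPM without roots, and a metal ion ABC transporter (241444) rose, with 522, 597 and 584 CPM, against 400.4 and 443 CPM. Without no-root replicate 1 there were 2 of each.

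Cell wall enzymes were divided, with 14 rises and 15 falls of 115. Models annotated as chitinases, enzymes that cut chitin, went both ways. Chitinase 12177 had 811, 718 and 713 CPM with root exudates, against 463 and 489 CPM without roots (log2 0.65, SE 0.08, adjusted p = 0.000418). Chitinases 183596, 340186, 190513 and 20675 rose by log2 0.47 to 0.63. Chitinase 348180 went the other way, with 73.4, 82.6 and 85.8 CPM, against 127 and 119.9 CPM. A chitin deacetylase, 25335, had 27.4, 23.1 and 40.6 CPM, against 10.8 and 9.62 CPM. Of 17 tested models annotated as chitin synthases, 4 fell, namely 67965, 348658 (log2 -0.38), 35524 (-0.82) and 18257 (-0.47), 1 rose (350031, 0.59) and 12 did not pass. Without no-root replicate 1, rises numbered 8 and falls 3.

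Nitrogen uptake and assimilation models had 7 falls and 2 rises of 22, with a median of -0.19. Urea transporter 8464 had 14.1, 16.8 and 19.1 CPM with root exudates, against 44.5 and 54.9 CPM without roots (log2 -1.58, SE 0.16, adjusted p = 0.000108). Another urea transporter, the Dur3-like 94248, had 10.4, 21.0 and 20.5 CPM, against 61.9 and 64.8 CPM. Urease (341461), which splits urea into ammonia, had 195, 214 and 201 CPM, against 266 and 338 CPM. In these 3 models every root-exudate library was below both no-root libraries. The most abundant urea transporter model, 74585, did not pass, with 119, 143 and 151 CPM, against 157 and 158 CPM (adjusted p = 0.195), and neither did the urease accessory model 81791, with 21.5, 29.9 and 28.6 CPM, against 20.04 and 19.5 CPM (adjusted p = 0.119).

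Some nitrate and ammonium models fell as well. Model 3357, whose best hit is nitrite reductase, a step of nitrate use, had 3.96, 9.67 and 7.84 CPM with root exudates, against 31.5 and 39.1 CPM without roots (log2 -2.31, SE 0.28, adjusted p = 0.0011), and a nitrate transporter-like model (30566) had 1.32, 1.96 and 5.03 CPM, against 13.5 and 18.5 CPM. Ammonium permease 314321 had 59.7, 56.9 and 68.7 CPM, against 105 and 105 CPM, and permease 337137 had 46.02, 84.1 and 99.6 CPM, against 326 and 438 CPM (adjusted p = 0.0474). The permease 218287, had overlapping groups, with 103, 129 and 131 CPM, against 129 and 148 CPM (adjusted p = 0.237). A glutamine synthetase-like model (324826) rose, with 144, 123 and 148 CPM, against 90.9 and 89.1 CPM, while 5 annotated glutamine synthetases (13789, 17992, 337094, 260975, 20690) did not pass, with log2 from -0.18 to 0.32. Another model with nitrite reductase as its best hit, 250662, stood at log2 -0.48 with adjusted p = 0.0508. Falls numbered 6 to 8 in every alternative.

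Phosphate models, of interest because the fungus feeds phosphate to its host, numbered 8. The inorganic phosphate transporter 7378 had 7.25, 5.14 and 5.74 CPM with root exudates, against 10.9 and 13.6 CPM without roots (log2 -1.02, SE 0.23, adjusted p = 0.0129). The transporters 345640 (log2 -0.72, adjusted p = 0.127) and 22848 (-0.16, 0.349) did not pass. Vacuolar polyphosphate models, which store phosphate as chains, were higher where called: 349712 had 358, 319 and 353 CPM, against 252 and 269 CPM, and 211750 had 21.6, 14.2 and 22.4 CPM, against 9.49 and 11.4 CPM. A further phosphate model, 67530, fell by 0.27 on the log2 scale (adjusted p = 0.0498). Rises were called 0 times without no-root replicate 1, and falls 0 times without root-exudate replicate 2 or no-root replicate 2.

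The P-type cation ATPase named among the largest rises is not in the list of P-type ATPases and metal transporters, whose largest log2 was 0.83. That list gave 3 rises and 6 falls of 54, and major facilitator and sugar transporters gave 6 and 7 of 51. Without no-root replicate 1 these were 1 and 1, and 3 and 5, and without no-root replicate 2 they were 2 and 5, and 2 and 7. The ZIP-type zinc transporter 336724 had 1.58, 1.51 and 3.04 CPM with root exudates, against 8.67 and 10.5 CPM without roots, and the zinc exporter-like 70519 had 21.0, 16.9 and 20.6 CPM, against 49.3 and 30.8 CPM. A P-type ATPase (344855) rose, with 531, 493 and 533 CPM, against 374 and 383 CPM. Of major facilitator models, 7986 fell, with 13.8, 9.21 and 11.0 CPM, against 50.3 and 52.3 CPM, and a sugar transporter (128409) rose, with 183, 175 and 182 CPM, against 112 and 125 CPM.

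Histone models, which package DNA and are made mostly during DNA synthesis, had 0 rises and 5 falls of 23, with a median of -0.22. Of 13 members at 50 CPM or more 5 fell. Histone H2A (343100) had 314, 343 and 402 CPM with root exudates, against 546 and 551 CPM without roots (log2 -0.64, SE 0.09, adjusted p = 0.00113). Histone H3 models 334093 and 29937, H2B (340364) and H4 (29938) stood at log2 -0.30 to -0.58, and 12.16% of the reads of 29938 also matched another model. Within the root-exudate group H2A was lowest in replicate 1. All 5 were lower still in acetone at 14 d, where H2A averaged 145 CPM and H3 334093 3.85 CPM. The count was 1 without root-exudate replicate 2 or either no-root library, and 7 without root-exudate replicate 3.

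DNA replication and repair had 7 rises and 14 falls of 99. The helicase loader MCM6 (39935) had 86.5, 93.9 and 96.9 CPM with root exudates, against 135 and 139.6 CPM without roots (log2 -0.58, SE 0.08, adjusted p = 0.000925). The small subunit of ribonucleotide reductase (80358), which makes DNA building blocks, had 63.3, 65.1 and 80.0 CPM, against 114 and 106 CPM. MCM7 (245895), MCM2 (28952), the sliding clamp PCNA (335451), primase (2833) and DNA ligase I (11801) fell as well, at log2 -0.37 to -0.77. The repair proteins XPA (339995) and an XPC partner model (248248) rose by log2 0.50 and 0.43. Without no-root replicate 1 there were 0 rises and 4 falls. Mitosis models gave 2 rises (2.63%) and 3 falls (3.95%) of 76, both below the shares over all models (7.46% and 7.75%). Among these falls were a polo-like kinase (27598, -0.74) and condensin SMC2 (5518, -0.58). Chromatin modifiers gave 10 rises (8.0%) and 3 falls (2.4%) of 125. Without no-root replicate 1 the mitosis counts were 1 and 2 and the chromatin counts 3 and 2.

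RNA silencing proteins, which use small RNAs to shut off transcripts and transposons, had 0 rises and 14 falls of 66, with a median of -0.20. At 50 CPM or more 8 of 29 fell. The RNA-dependent RNA polymerase 256897 had 139, 98.8 and 108 CPM with root exudates, against 233 and 235 CPM without roots (log2 -1.02, SE 0.14, adjusted p = 0.00239). The polymerases 68366 and 9546 fell by 0.47 and 0.60 on the log2 scale. Argonaute models, the small RNA-bound slicers, included 339811 with 78.9, 89.0 and 93.9 CPM, against 118 and 124 CPM, and a Dicer-annotated model (311507) had 59.5, 71.4 and 76.8 CPM, against 105 and 87.3 CPM. Polymerases, argonautes and Dicer thus each had a member that fell. Falls numbered 5 without no-root replicate 2, 7 without no-root replicate 1 and 18 without root-exudate replicate 1. Transposon-like models gave 2 rises and 2 falls of 31, and 0 and 1 without no-root replicate 1.

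Signalling models are given by kind. Small and heterotrimeric GTPases, molecular switches of growth and traffic, had 11 rises and 0 falls of 40, with a median of 0.21, and all 11 were among the 31 members at 50 CPM or more. A G protein alpha subunit (345025) had 261, 279 and 293 CPM with root exudates, against 169 and 182 CPM without roots (log2 0.66, SE 0.08, adjusted p = 0.000306). The RAS-like GTPase 336434 had 729, 582 and 614 CPM, against 407 and 415 CPM. Rises numbered 5 to 15 over the fits that left out 1 library and falls 0 in all of them.

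Protein kinases gave 49 rises and 82 falls of 1001, and 11 and 28 without no-root replicate 1. In the full fit the kinase shares were 4.9% and 8.19%, against 7.46% and 7.75% over all models. The kinases had a median level of 5.73 CPM, and at 50 CPM or more 32 rose and 20 fell of 151. The leucine zipper kinase 336497 had 26.0, 29.8 and 27.5 CPM with root exudates, against 136 and 94.0 CPM without roots. The Chk2-like kinase 335271 had 261, 309 and 314 CPM, against 179 and 174 CPM. In calcium signalling there were 4 rises and 6 falls of 54, and 1 of each without no-root replicate 1. The calcineurin inhibitor-like model 129851 had 85.6, 99.97 and 106 CPM, against 1022 and 553 CPM (log2 -3.02, SE 0.33, adjusted p = 0.0165). Its no-root libraries differed from each other by less than 2-fold and both lay well above the root-exudate libraries. Actin, tubulin and motor models rose in 23 of 182 and fell in 6, with a kinesin (274323, log2 0.57), a myosin II-like model (26520, 0.61) and a gelsolin-like model (334739, 0.64) beside dynein. Among those at 50 CPM or more these were 21 and 2 of 102, and 6 rises were left without no-root replicate 1.

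**Figure D4:**
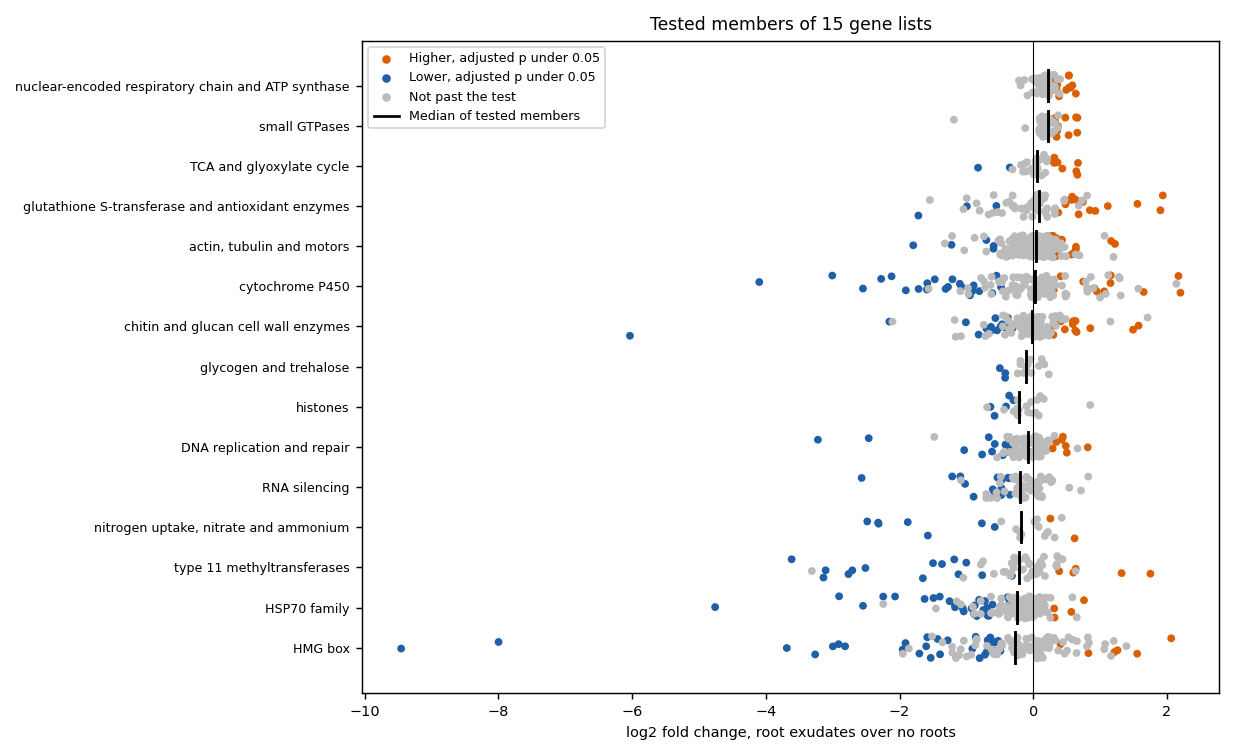
Log2 fold change, root exudates over no roots, of every tested member of 15 gene lists. Orange and blue points passed an adjusted p of 0.05, grey points did not, and black bars are medians, which lie between 0.22 for the respiratory chain and -0.28 for the HMG box list; the points below -6 have 0 to 5 root-exudate reads, and their fitted values are no bound.

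HSP70-like chaperones, a large family in this fungus that helps other proteins fold, had 4 rises and 32 falls of 130, with a median of -0.25. At 50 CPM or more 2 of 44 rose and 12 fell. Model 342089 had 371, 359.6 and 300.8 CPM with root exudates, against 901 and 907 CPM without roots (log2 -1.40, SE 0.09, adjusted p = 5.9e-06). Model 253191 had 38.1, 33.4 and 33.5 CPM, against 105 and 91.6 CPM, and 15186 had 39.6, 33.4 and 33.4 CPM, against 86.6 and 81.9 CPM. Falls numbered 10 without either no-root library and 39 without root-exudate replicate 1. Other chaperones went both ways, with 15 rises and 9 falls of 121, but 2 and 3 without no-root replicate 1 and 1 and 5 without no-root replicate 2.

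HMG box models, DNA-binding proteins of which some act at fungal mating-type loci, had 6 rises and 32 falls of 128, with a median of -0.28. Model 14969 had 3.03, 1.36 and 2.58 CPM with root exudates, against 35.4 and 25.5 CPM without roots (log2 -3.69, SE 0.27, adjusted p = 1.28e-05). Model 340933 had 66.6, 86.1 and 88.1 CPM, against 276 and 209.8 CPM. The mating-type-like 204782 rose, with 18.5, 21.8 and 19.7 CPM, against 8.32 and 8.26 CPM. Falls numbered 18 to 34 over the fits that left out 1 library, the fewest without no-root replicate 1. Among transcription factors at large 26 rose (7.95%) and 27 fell (8.26%) of 327, near the 7.46% and 7.75% over all models. These counts were 40 and 26 without root-exudate replicate 1, and 15 and 16 without root-exudate replicate 2.

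Other large families sat mostly at low levels, where falls outnumbered rises over all models too (3.12% higher and 7.71% lower below 50 CPM). Sel1 repeat models, with repeats that bind other proteins, gave 4 rises and 45 falls of 424 and a median of -0.33, and 13 falls without no-root replicate 1. Kelch and BTB repeat models gave 25 rises (3.86%) and 40 falls (6.18%) of 647, and 4 and 20 without no-root replicate 1. Type 11 methyltransferases, which move methyl groups to small molecules or proteins, gave 5 rises and 14 falls of 59, among them 73622 with 0.527, 1.51 and 1.29 CPM with root exudates, against 8.91 and 10.2 CPM without roots. Their falls held at 11 to 15 over the fits that left out 1 library. Undescribed models gave 151 rises (4.00%) and 265 falls (7.02%) of 3776. The lists not described above had both rises and falls: cytosolic ribosomal proteins 9 rises and 5 falls of 87, translation factors 9 and 6 of 123, ribosome biogenesis 4 and 3 of 57, vesicle traffic 16 and 9 of 148, ubiquitin and proteasome 16 and 11 of 212, amino acid metabolism 5 and 5 of 82, peptidases 9 and 10 of 151, and lipases 5 and 6 of 56. Among members at 50 CPM or more, ribosomal proteins had 8 rises and 3 falls of 75, and translation factors 7 and 3 of 70. Ribosome biogenesis had 4 and 3 of 39 there, vesicle traffic 13 and 4 of 112, and ubiquitin and proteasome 16 and 5 of 132. Over all models at that level 16.9% rose and 7.85% fell. Without no-root replicate 1 every whole-list count of these lists was lower than in the full fit. Vesicle traffic, ubiquitin and proteasome, and amino acid metabolism then had more falls than rises, which they did not have in the full fit.

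The acetone libraries of the time course share no sample with the root set and serve as a reference for time in liquid culture. Between 1 h and 14 d, 8433 of 14397 models (58.6%) changed, 4173 higher (29.0%) and 4260 lower (29.6%). Of 1087 models that were higher with root exudates and were tested there, 562 (51.7%) were higher at 14 d and 269 (24.8%) lower. Of 972 that were lower with root exudates, 332 (34.2%) were higher at 14 d and 360 (37.0%) lower. The shared rises are 14.0% of the rises over time tested in the root set, and the shared falls 8.78% of the falls over time.

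GR24 comparisons also share no sample with the root set. At 7 d 592 of the models raised by GR24 were tested with roots, and 14 (2.37%) were higher and 114 (19.3%) lower with root exudates, or 1.29% and 11.6% of the root calls tested there. At 1 h the numbers were 74 (7.90%) higher and 140 (14.9%) lower of 937, and at 2 d 14 and 35 of 130. At 14 d, 37 (22.3%) were higher and 31 (18.7%) lower of 166. Of the models lowered by GR24 at 1 h, 73 were higher and 55 lower with root exudates of 472, at 2 d 15 and 17 of 165, at 7 d 47 (16.2%) and 44 (15.1%) of 291, and at 14 d 29 (10.8%) and 64 (23.9%) of 268. GR24 had raised 7.05% and lowered 3.39% of the models tested at 1 h (10.4% in all), 1.02% and 1.13% at 2 d (2.15%), 4.31% and 2.12% at 7 d (6.43%), and 1.29% and 1.95% at 14 d (3.25%). These overlaps are counts and were not tested. Tested directly, the effect of root exudates and that of GR24 at 14 d differed in 1749 of 15390 models (11.4%), of which 984 (6.39%) were higher and 765 (4.97%) lower for roots.

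**Figure D5:**
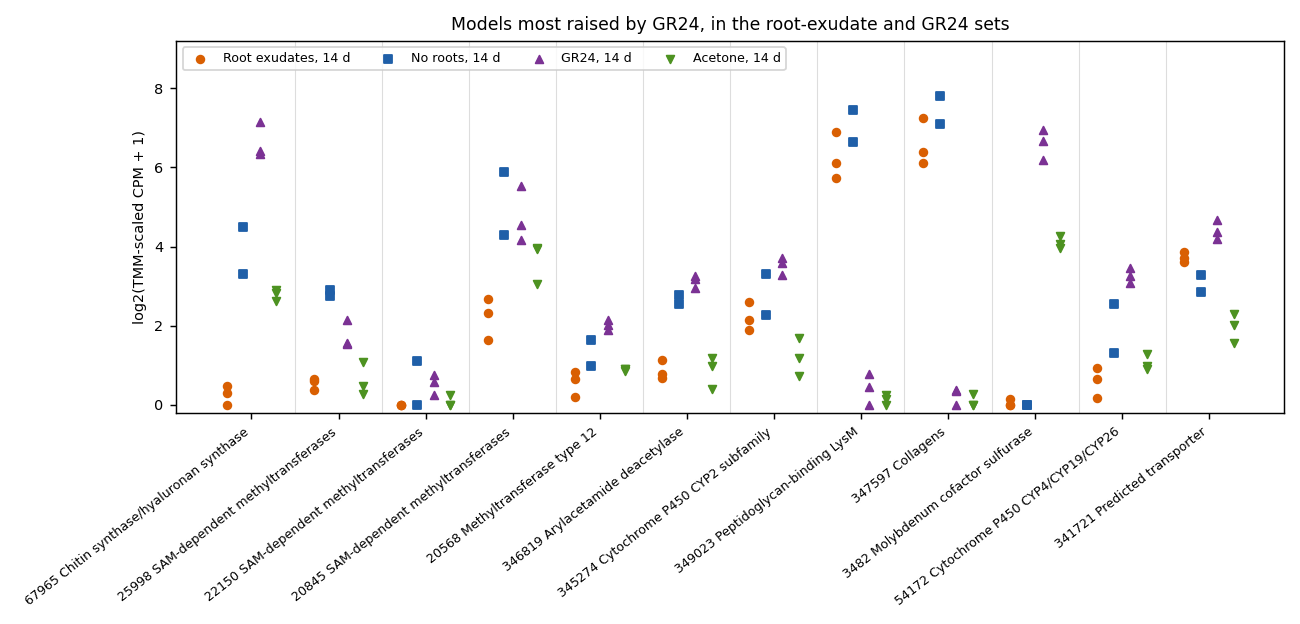
Log2(TMM-scaled CPM + 1) per library at 14 d, in both sets, of the 12 described models with the largest rises under GR24 at any of its times. Circles are root exudates (3 libraries), squares no roots (2), upward triangles GR24 (3) and downward triangles acetone (3); for the chitin synthase 67965 the GR24 libraries are the highest and the root-exudate libraries the lowest.

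Described models that GR24 raised most, 12 in all, were chosen in the GR24 libraries alone and then looked up in the root set. Of the 9 with enough reads in the root set, 4 fell, 0 rose and 5 did not pass, and 8 had a log2 fold change below 0. Over all tested models 7.75% fell and 7.46% rose, and 7249 of 14752 had a log2 fold change above 0. Under 5 CPM 6.16% fell and 1.07% rose. Chitin synthase 67965 had 79.8, 83.6 and 141 CPM with GR24 at 14 d, against 5.16, 6.14 and 6.51 CPM with acetone, while its root-exudate libraries held 0.396 CPM or less. The arylacetamide deacetylase-like model 346819, of the alpha/beta hydrolase enzymes, had 1.19, 0.604 and 0.702 CPM with root exudates, against 5.86 and 4.81 CPM without roots (log2 -2.66, SE 0.40, adjusted p = 0.00127), and a log2 of 3.22 under GR24 at 14 d. The methyltransferase 25998 stood at log2 -3.62 with root exudates and 2.21 with GR24, and the P450 54172 at -2.55 and 3.02.

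The call of 54172 was lost in 5 alternatives, among them without root-exudate replicate 2 or 3 or no-root replicate 1 (adjusted p up to 0.441). The methyltransferase 20845 had 5.41, 2.11 and 3.98 CPM with root exudates, against 58.4 and 18.6 CPM without roots, and did not pass (adjusted p = 0.0591). The P450 345274, the LysM model 349023, which has a chitin-binding fold, and the collagen-like 347597 had overlapping groups and adjusted p of 0.215, 0.404 and 0.376. The transporter 341721 was the 1 model of the 9 above 0, at log2 0.71 (adjusted p = 0.0504). Models 22150, 20568 and 3482 had too few reads in the root set to be tested.

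In the authors' deposited table, 935 models had a corrected p-value under 0.05 in this comparison, all of them tested here, and 881 passed edgeR as well. The authors' deposited table gives 487 of them a fold above 0, 445 a fold below 0 and 3 no number. The sign was opposite to the direction by sample titles in 932 of 932, as follows from the reversed group names, and has no bearing on which naming is right.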

How the data were processed

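RNA of germinated spores was sequenced as poly-A selected Illumina pairs, per the labels' protocols. The authors deposited, for each gene model and library, counts of total and of unique gene reads, RPKM values and gene length, and, for each comparison, a false discovery rate p-value from Baggerley's test and a score, the signed fold of weighted proportions. Which mapper, version and genome build were used is not given in the sources used here. Of 30282 models 14088 carry a functional description and 14382 a best hit in the deposited tables; 0 of their IDs matched the reference gene table, so names are the tables' own. Of 30 labelled samples, 25 have a column.

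Tests on total gene reads used edgeR 4.0.16 in R 4.3.3: models with low counts were filtered by group, libraries scaled by TMM, and robust quasi-likelihood fits tested 2-sided, with Benjamini-Hochberg adjustment at 0.05. The root fit used the 5 root-set libraries alone, and fold changes are root exudates over no roots. Levels are CPM, scaled by TMM over all 25 libraries. SE is the log2 fold change over the root of its F value. Intervals and floors cover counting error only, as reads carry no molecular identifiers. The method was tested on simulated counts. Unless said otherwise, adjusted p-values are edgeR's. Alternatives included DESeq2 1.42.0, limma-voom (limma 3.58.1), other scalings and filters, unique reads, wider fits, a replicate block and leaving out each library.

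Named models are the 15 largest described rises and falls of at least 5 CPM, the 4 members of smallest adjusted p in each list, the 5 models of smallest p each way for the difference from the GR24 effect, the 5 largest GR24 rises at each time and the 3 largest undescribed rises and falls; others were chosen after their values were seen. The libraries compared and the gene lists were chosen with earlier results of these data known. Results for some models are not reported here.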

Additional observations from a re-analysis of the deposited data

Results flagged for a closer look

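The effect of root exudates at 14 d differed from the effect of GR24 at 14 d in 1749 of 15390 models tested (11.4%) by a test of the difference itself in edgeR, with 984 (6.39%) higher and 765 (4.97%) lower for roots. The sets differ in culture format as well as in treatment, and these cannot be told apart. The following described models had the smallest p in each direction by the rule for named models.

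The aldo/keto reductases differed most clearly among the higher ones: the difference of log2 fold changes was 2.78 for 33452, 2.83 for 62569, 1.62 for 204628 and 1.56 for 137896. The first 2 stood below 0 with GR24 at log2 -0.73 and -0.80, while 204628 and 137896 stood at -0.09 and -0.06. Riboflavin kinase 346830, which makes the cofactor FMN, had 229, 245 and 259.6 CPM with root exudates, against 124 and 114 CPM without roots, and its difference was 1.31.

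Among the lower ones, the E3 ubiquitin ligase 350230 had 122, 107 and 119 CPM with root exudates, against 497 and 448 CPM without roots (log2 -2.03, SE 0.08), and log2 1.44 with GR24, a difference of -3.47. The zinc finger 50548 had a difference of -4.5. The corepressor-like model 336082 had 106, 115 and 126 CPM, against 252 and 254 CPM, and a difference of -1.48. The major facilitator transporter 340471 had 4.09, 3.93 and 3.98 CPM, against 9.38 and 9.497 CPM, and a difference of -2.89. Model 8278 had 110.5, 112 and 109.7 CPM, against 242 and 256 CPM, and a difference of -1.2. In all 10 models the root-exudate and no-root libraries did not overlap. This was so in 24.0% of all tested models with root exudates above and in 23.9% with root exudates below. The 10 models were chosen by a test that contains this same difference, so the lack of overlap adds no support.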

How the results depend on the processing

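The 2245 models called between root exudates and no roots became 2011 with DESeq2, 2134 with limma-voom, 2247 with RLE scaling, 2131 with library totals only, 2569 with no low-count filter, 2065 with a filter of 5 CPM in 2 libraries, 2253 on unique gene reads and 2126 without the robust option. Fits that share their spread with more libraries gave 3510 (all libraries at 14 d) and 3434 (all 25). They also tested more models, 15390 and 16232 against 14752, and why they called more was not tested. Leaving out each library in turn gave 795 to 2919 calls, and 416 to 828 at 2-fold or more, against 711. The lowest came without no-root replicate 1 (308 higher, 487 lower), where no-root replicate 2 alone is assumed to vary like the root-exudate libraries. The difference from the GR24 effect gave 1054 to 2145 calls, against 1749, the lowest again without no-root replicate 1, and the change from 1 h to 14 d in acetone 7047 to 8051, against 8433. The labels do not say that equal replicate numbers pair libraries, and with 2 shared numbers the deviations cannot decide it; a replicate block gave 1580 calls (701 higher, 879 lower), 618 at 2-fold or more, 1567 for the difference from GR24 and 7703 for acetone over time.

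Of the 192 named models called, 131 kept their call in every alternative, 61 lost it in at least 1, most often without no-root replicate 1 (41) or 2 (30), and 0 reversed. Library totals only turned the medians of the chromatin, glycolysis, tricarboxylic acid, fatty acid and sterol, P450, other chaperone, proteasome, peptidase, actin and transcription factor lists below 0. Models of few reads limit what could be tested: 9390 models had no read in the root set. With 2 no-root libraries, the spread of that group rests on 1 difference.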
